A study of Mus musculus with 4 samples.

Results

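The BAF complexes, the mammalian SWI/SNF family, use ATP to slide and evict nucleosomes. Each complex combines an ATPase with a shared core and with subunits that set its type, and most places can be filled by one of several related proteins. The form known from mouse embryonic stem cells (esBAF) holds BRG1 and BAF155 and is needed for self-renewal and pluripotency, while the related subunits BRM and BAF170 are known for more differentiated cells. The expression of 10 genes that encode such subunits was examined here in F123-ESCs, out of 24026 genes listed. They were chosen by symbol and by no rule on their values, but with earlier results of these data known. The members are the ATPase genes Smarca4 and Smarca2, the core genes Smarcc1, Smarcc2, Smarcd1, Smarcb1 and Smarce1, and the genes Arid1a, Dpf2 and Brd9, whose products set the type of the complex.

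F123-ESCs are a male mouse ESC line of the genotype S129/CAST, with maternal chromosomes of S129 (S129S4/SvJae) and paternal chromosomes of CAST (Mus musculus castaneus). The series holds 1 condition: 4 libraries of untreated cells, replicates 1 to 4, grown on feeder fibroblasts with LIF, moved to feeder-free plates for the last passages and collected about 48 h after plating. PolyA-enriched RNA was sequenced with paired reads of 150 bp, and the deposited value is the RPKM of each allele, that is, reads that cover a SNP and were assigned to S129 or CAST, scaled to the length of the gene and to all reads of that allele. No label says whether the libraries come from separate cultures, so the error given here is the spread between libraries, which may be technical, and the line is a single cross, so that strain and parent of origin cannot be told apart.

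The reads of both alleles together ranged from 34120416 in replicate 4 to 56627972 in replicate 1. The labelled cell type was checked against marker genes, on the deposited RPKM and on exon-union RPKM, a scale explained below that counts every annotated exon as length. All 8 pluripotency genes reached 1 RPKM on both scales, from 29.5 for Pou5f1 to 7111 for Dppa5a as deposited. Of the fibroblast genes 8 of 10 did so as deposited, with a median of 2.78 RPKM, and 5 of 10 on exon-union RPKM, with a median of 1.39 RPKM. Col1a2 stood at 166 RPKM as deposited and 11.3 RPKM on exon-union RPKM, and Lum and Dcn were below 1 on both. Neural genes reached 1 RPKM in 3 of 8 cases (Nes, Tubb3 and Map2) and on exon-union RPKM in 2 (Nes and Tubb3), and Neurod1 was listed at 0. For primitive endoderm it was 3 of 6 (Dab2, Gata6 and Gata4) as deposited, and on exon-union RPKM 1 of 6, Dab2 with 3.87 RPKM. The part of other cell types in the levels below was not tested, and in a bulk sample fewer cells of a type and less RNA per cell cannot be told apart.

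The ATPase genes are shown with the sequence around their start, since they encode the catalytic subunits and differed strongly in level. Each stretch holds 300 bases around the start in RefSeq (GRCm38.p6, the assembly of mm10), most of them before it, and capitals mark matches to the motifs searched.
Smarca4, chr9:21615919-21616218, plus strand: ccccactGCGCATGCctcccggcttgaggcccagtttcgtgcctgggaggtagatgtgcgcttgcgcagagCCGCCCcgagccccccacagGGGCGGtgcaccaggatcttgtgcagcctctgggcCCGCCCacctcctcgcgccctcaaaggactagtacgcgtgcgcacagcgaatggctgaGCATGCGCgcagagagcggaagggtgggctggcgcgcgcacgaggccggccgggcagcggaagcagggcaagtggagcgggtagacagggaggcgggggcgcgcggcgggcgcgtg
Smarca2, chr19:26604910-26605209, plus strand: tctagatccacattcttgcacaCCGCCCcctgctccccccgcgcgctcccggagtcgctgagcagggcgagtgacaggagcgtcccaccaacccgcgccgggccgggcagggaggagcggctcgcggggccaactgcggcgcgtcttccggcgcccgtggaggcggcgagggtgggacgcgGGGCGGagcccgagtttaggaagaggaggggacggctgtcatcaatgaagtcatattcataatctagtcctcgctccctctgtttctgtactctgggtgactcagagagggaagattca

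The motifs searched on both strands were the TATA box (TATAAA), the CCAAT box (CCAAT), the GC box (GGGCGG), the E-box (CACGTG) and the core of the NRF1 motif (GCGCATGC). The last was chosen after the start of the Smarca4 promoter had been seen. The Smarca4 promoter holds 3 GC boxes and 2 NRF1 cores, and the Smarca2 promoter holds 2 GC boxes and no NRF1 core. RefSeq promoters were found for 9 of the 10 genes, all but Smarce1, and number 11, since Arid1a and Brd9 have a pair of starts each. The pair of Brd9 (chr13:73937561-73937860 and chr13:73937578-73937877) overlaps over most of its length, so nearly the same sequence is counted again. A GC box lay in 10 of these 11 promoters, against 35.7% of all 32851 promoters of the same length. The NRF1 core lay in 3 (Smarca4, Smarcc1 and Smarcb1), against 2.71% of all. Its match in Smarca4 was fixed by the way the motif was chosen. No TATA box and no E-box was found, against 13.6% and 7.15% of all promoters, and a CCAAT box lay only in that of Dpf2, against 37.4%. The promoters were rich in CpG, with a median of 33 CpG in 300 bases, against 7 over all promoters, and from 20 in Dpf2 to 48 in Smarcc2. Thus the promoter of the low ATPase gene Smarca2, with 29 CpG, was nearly as rich as that of Smarca4, with 33. The median GC content was 71.3%, against 52.7% over all promoters. All promoters were not matched to the members in GC content, CpG or expression. These matches describe the letters only.

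All 10 members were detected, with a mean over alleles and libraries that reached 1 RPKM in each case as deposited, and in 9 of 10 on exon-union RPKM. Their median was 22.5 RPKM as deposited, while the median over all genes listed was 0.975 RPKM. On exon-union RPKM it was 9.20. The median on that scale over the 20122 genes with a recovered length, which leaves out genes at 0, was 1.42. The levels between genes depended strongly on the gene length that the RPKM used. For 87.0% of the genes above 0 it equalled the first transcript that GENCODE M21 lists for the gene, which can be short, and in 6 of the 10 members all annotated exons together came to more than 2 times that length, as in 31.5% of 11938 expressed genes. Levels are therefore given on 2 scales: the deposited RPKM, and an RPKM recomputed here over every annotated exon of the gene, called exon-union RPKM. The first runs from 1.13 RPKM for Smarca2 to 486 RPKM for Smarcc1, a 429-fold range, and the second over a 48.1-fold range between the same genes. A ratio between alleles or libraries of the same gene does not depend on the length. The pseudocount and the filter used below act on the level, and so on low genes they do depend on it. Since only reads over SNPs count, levels between genes also follow how many SNPs each gene holds, and this was not tested.

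**Figure D1:**
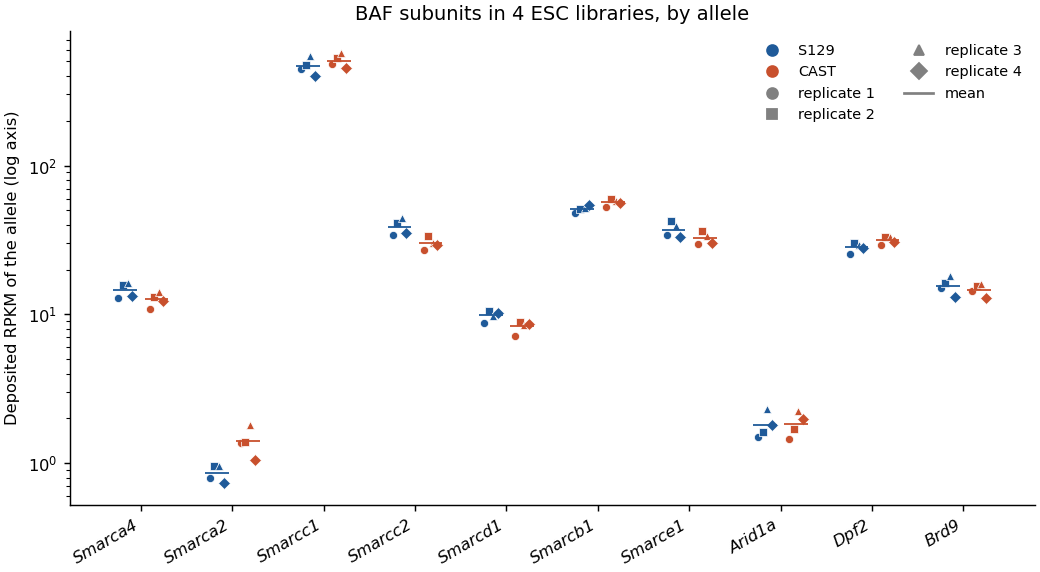
Deposited RPKM (log axis) of the 10 members in F123-ESCs, with the S129 allele in blue and the CAST allele in red, a symbol for each of the 4 replicates and a line at the mean. The S129 and CAST values of Smarca2 do not overlap, with S129 from 0.735 to 0.963 RPKM and CAST from 1.05 to 1.82 RPKM, while those of Arid1a lie on top of each other.

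Of the ATPase genes, Smarca4 (ENSMUSG00000032187, chr9:21616169-21704230, plus strand), which encodes BRG1, was by far the higher. It stood at 11.8, 14.5, 15.2 and 12.8 RPKM in replicates 1 to 4, 13.6 ± 1.52 RPKM on average (SD, n = 4). Between 1314 and 2574 reads stood behind each value of an allele. Smarca2 (ENSMUSG00000024921, chr19:26605050-26778322, plus strand), which encodes BRM, stood at 1.08, 1.18, 1.39 and 0.892 RPKM, 1.13 ± 0.21 RPKM on average, from 73 to 245 reads per allele. The lowest library of Smarca4 was far above the highest of Smarca2. On log2(RPKM+0.1) the difference within a library was 3.48 ± 0.17 (SD), an 11.1-fold difference, in 4 of 4 libraries (exact sign-flip permutation test, two-sided, p = 0.125, the smallest p that 4 libraries allow, 0.139 after adjustment over 10 pairs of subunits). With a pseudocount of 1 the difference was 2.77 ± 0.11 (6.83-fold), and on exon-union RPKM it was 4.61 ± 0.15 (24.4-fold), since Smarca2 has 46 annotated transcripts whose exons add up to 14269 bp. The level of Smarca4 barely moved with the length (13.3 RPKM), and that of Smarca2 was 0.453 RPKM, below the median over the 20122 genes on this scale. Smarca4 thus held 92.3 ± 0.89% of the summed RPKM of both ATPase genes as deposited and 96.7 ± 0.40% on exon-union RPKM.

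Of the scaffold genes, Smarcc1, which encodes BAF155, exceeded Smarcc2, which encodes BAF170. Smarcc1 (ENSMUSG00000032481, chr9:110117708-110240178, plus strand) stood at 462, 501, 558 and 425 RPKM, 486 ± 56.7 RPKM on average, and ranked above 99.2% of all genes. This rank belongs to a short length: the values gave whole reads for 351 bp, while its exons together measure 7832 bp, 22.3 times as much. Every multiple of 351 bp gives whole reads as well, so the exon-union level of 21.8 ± 2.54 RPKM is the lowest that the values allow. Smarcc2 (ENSMUSG00000025369, chr10:128459248-128490482, plus strand) stood at 30.6, 37.4, 37.4 and 32.2 RPKM, 34.4 ± 3.49 RPKM on average, with a length of 603 bp against 5552 bp of exons. Its exon-union level was 3.73 ± 0.38 RPKM. No library of Smarcc2 came near those of Smarcc1. The difference on log2(RPKM+0.1) was 3.82 ± 0.10 as deposited (14.1-fold) and 2.51 ± 0.10 on exon-union RPKM (5.70-fold), both in 4 of 4 libraries (exact permutation p = 0.125, adjusted 0.139). Smarcc1 held 93.4 ± 0.43% and 85.3 ± 0.88% of the pair's sum on these scales. Smarcc2 made up the remaining 14.7 ± 0.88% on exon-union RPKM. Since the level of Smarcc1 on this scale is a lower bound, its share and its difference from Smarcc2 are lower bounds too. The share of Smarcc2 is accordingly an upper bound.

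In the BAF60 family, whose products link the complex to transcription factors, Smarcd1 was not the leading gene. Smarcd1 (ENSMUSG00000023018, chr15:99702129-99713991, plus strand), which encodes BAF60A, stood at 7.98, 9.75, 9.18 and 9.45 RPKM, 9.09 ± 0.77 RPKM on average. Smarcd2, which encodes BAF60B, stood at 20.9, 23.2, 22.9 and 18.7 RPKM and was above Smarcd1 in every library. The difference of Smarcd1 from Smarcd2 was -1.22 ± 0.17 on log2(RPKM+0.1) as deposited and -1.08 ± 0.17 on exon-union RPKM (4 of 4 libraries, exact permutation p = 0.125, adjusted 0.139). On exon-union RPKM Smarcd1 held 31.8 ± 2.67% of the family and Smarcd2 67.8 ± 2.62%. The length behind the values of Smarcd1, 3153 bp, was also found by search and matches no annotated transcript, so that its exon-union level of 7.12 RPKM and its share are the lowest that the values allow. Smarcd3, which encodes BAF60C of heart and muscle, was at 0.123 ± 0.05 RPKM. The share of Smarcd1 differed between the alleles, 38.5 ± 2.20% in S129 reads and 26.5 ± 3.03% in CAST reads, with S129 above CAST in every library and no overlap of the ranges.

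The remaining core genes Smarcb1 and Smarce1 have no paralog in the complex. Smarcb1 (ENSMUSG00000000902, chr10:75896769-75921617, minus strand), which encodes the tumour suppressor BAF47, stood at 50.3, 55.4, 54.5 and 55.5 RPKM, 53.9 ± 2.46 RPKM on average. Its coefficient of variation over the libraries, 4.57%, was the lowest of the 10 members. Smarce1 (ENSMUSG00000037935, chr11:99209047-99231017, minus strand), which encodes the HMG-box protein BAF57, stood at 32.1, 39.4, 36.4 and 31.7 RPKM, 34.9 ± 3.67 RPKM on average. As deposited, Smarcb1 was above Smarce1 in each library (0.63 ± 0.13 on log2). On exon-union RPKM the order was the reverse, with 11.3 ± 0.52 RPKM for Smarcb1 and 15.3 ± 1.61 RPKM for Smarce1, since the exons of Smarcb1 together are 4.78 times its length in the RPKM and those of Smarce1 2.28 times.

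Arid1a, which encodes BAF250A, the subunit that defines canonical BAF, was the second lowest of the members. Arid1a (ENSMUSG00000007880, chr4:133679008-133756769, minus strand) stood at 1.47, 1.65, 2.28 and 1.90 RPKM, 1.83 ± 0.35 RPKM on average, from 256 to 464 reads per allele. Its close relative Arid1b stood at 1.28, 1.76, 1.75 and 1.82 RPKM. The libraries of both genes overlapped: the difference of Arid1a from Arid1b was 0.13 ± 0.19 on log2(RPKM+0.1), higher in 3 of 4 libraries (exact permutation p = 0.375, the same after adjustment). On exon-union RPKM it was -0.0018 ± 0.19, with 2 libraries on either side (exact permutation p = 1). The outcome for this pair depended on the length. With that of the longest coding transcript, added after seeing the data, Arid1a was above Arid1b in 4 of 4 libraries. The difference was then 0.31 ± 0.19 (exact permutation p = 0.125). Arid2, which belongs to the PBAF form, was higher than Arid1a in 4 of 4 libraries, but the size of this difference rested on the length. The difference of Arid1a from Arid2 was -5.10 ± 0.22 on log2(RPKM+0.1) as deposited and -1.85 ± 0.21 on exon-union RPKM (exact permutation p = 0.125, adjusted 0.139, for both). Arid2 stood at 65.2 RPKM with a length of 809 bp, and at 4.91 RPKM over its 10737 bp of exons. Arid1a, Arid1b and Arid2 held 17.2 ± 2.16%, 17.2 ± 1.63% and 65.5 ± 2.89% of the family on exon-union RPKM.

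Dpf2, which encodes the PHD finger protein BAF45D of canonical BAF, led its family on every scale. Dpf2 (ENSMUSG00000024826, chr19:5896516-5913010, minus strand) stood at 27.4, 31.6, 31.0 and 29.2 RPKM, 29.8 ± 1.89 RPKM on average. Dpf1 and Dpf3, known from neurons and muscle, stood at 6.48 ± 0.50 and 0.158 ± 0.01 RPKM, and Phf10 of PBAF at 2.79 ± 0.52 RPKM. Dpf2 was above each of them in 4 of 4 libraries, by 2.18 ± 0.08, 6.86 ± 0.08 and 3.39 ± 0.27 on log2(RPKM+0.1) (exact permutation p = 0.125, adjusted 0.139, for each). Against Dpf3, whose level is near the pseudocount, the difference was 4.73 ± 0.08 with a pseudocount of 1 and 6.19 ± 0.08 on exon-union RPKM. Dpf2 held 76.0 ± 1.43% of the family as deposited and 81.2 ± 1.14% on exon-union RPKM, where Dpf1 held 13.2 ± 0.62% and Phf10 5.05 ± 0.87%. Dpf1, a subunit of the neuronal complex, was thus measurable in these cells, from 198 to 408 reads per allele and library.

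Brd9 (ENSMUSG00000057649, chr13:73937811-73960895, plus strand) encodes the bromodomain protein that defines the non-canonical form ncBAF. It stood at 14.7, 15.9, 17.0 and 13.0 RPKM, 15.1 ± 1.72 RPKM on average. Brd7, its relative in PBAF, stood at 4.47, 5.36, 5.20 and 4.21 RPKM, below Brd9 in each library. The difference was 1.63 ± 0.07 on log2(RPKM+0.1) as deposited and 0.66 ± 0.07 on exon-union RPKM (4 of 4 libraries, exact permutation p = 0.125, adjusted 0.139, for both). The share of Brd9 accordingly was 75.9 ± 0.90% and 61.4 ± 1.17%. Thus of the 10 pairs compared, 9 kept their direction in 4 of 4 libraries on both scales, and Arid1a with Arid1b did not.

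**Figure D2:**
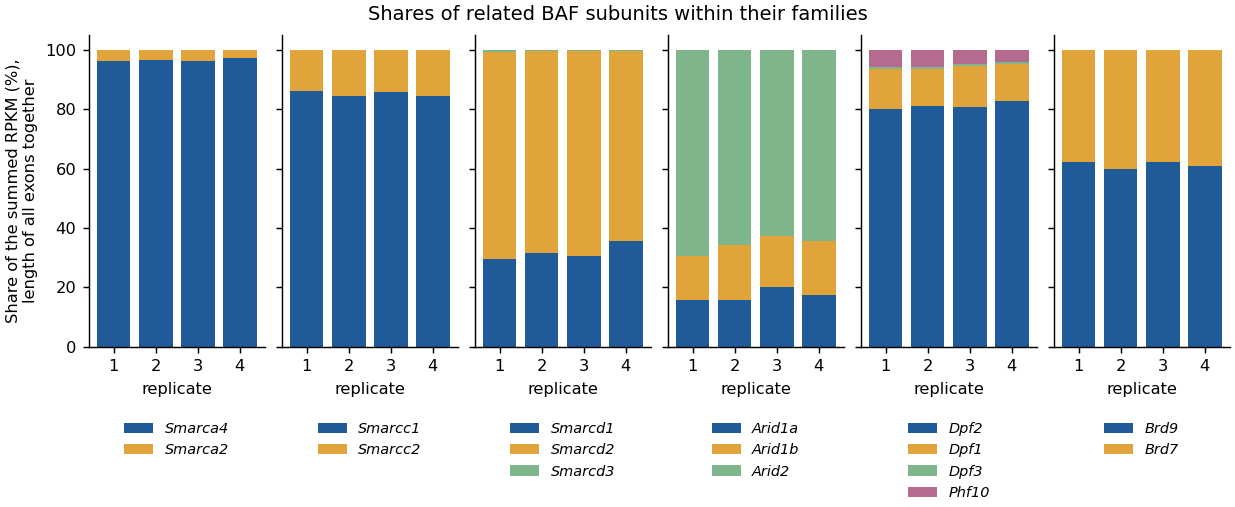
Share of each related subunit in the summed exon-union RPKM of its family (%, bars from 0 to 100), for replicates 1 to 4 of F123-ESCs and both alleles together. Smarca4, Smarcc1, Dpf2 and Brd9 hold the larger share in every replicate (means of 96.7%, 85.3%, 81.2% and 61.4%), Smarcd1 holds 31.8% beside Smarcd2, and Arid1a and Arid1b both average 17.2%. The shares of Smarcc1 and Smarcd1 are the lowest that the values allow.

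When ordered by deposited RPKM, the members ran Smarcc1, Smarcb1, Smarce1, Smarcc2, Dpf2, Brd9, Smarca4, Smarcd1, Arid1a and Smarca2. Of these neighbours, the libraries overlapped for Smarce1 and Smarcc2 (0.02 ± 0.06 on log2, higher in 2 of 4 libraries), for Smarcc2 and Dpf2 (0.20 ± 0.06) and for Brd9 and Smarca4 (0.16 ± 0.12), and the ranges of the others lay apart. On exon-union RPKM the order was Smarcc1, Smarce1, Dpf2, Smarca4, Smarcb1, Smarcd1, Brd9, Smarcc2, Arid1a and Smarca2, and the overlapping neighbours were Smarce1 and Dpf2 (0.01 ± 0.08) and Dpf2 and Smarca4 (0.19 ± 0.08). Smarcc2 stood lower and Smarca4 higher in the second order than in the first. Arid1a and Smarca2 stayed at the end of the order on both scales and with the length of the longest coding transcript, which was added after seeing the data. With that length Smarcb1, with 53.9 RPKM, came first and Smarcc1, with 29.6 RPKM, came lower. With either recomputed length the levels of Smarcc1 and Smarcd1 are the lowest that the values allow, since their lengths were found by search. Multiples of those lengths could move them up, so their places in these orders are not settled.

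**Figure D3:**
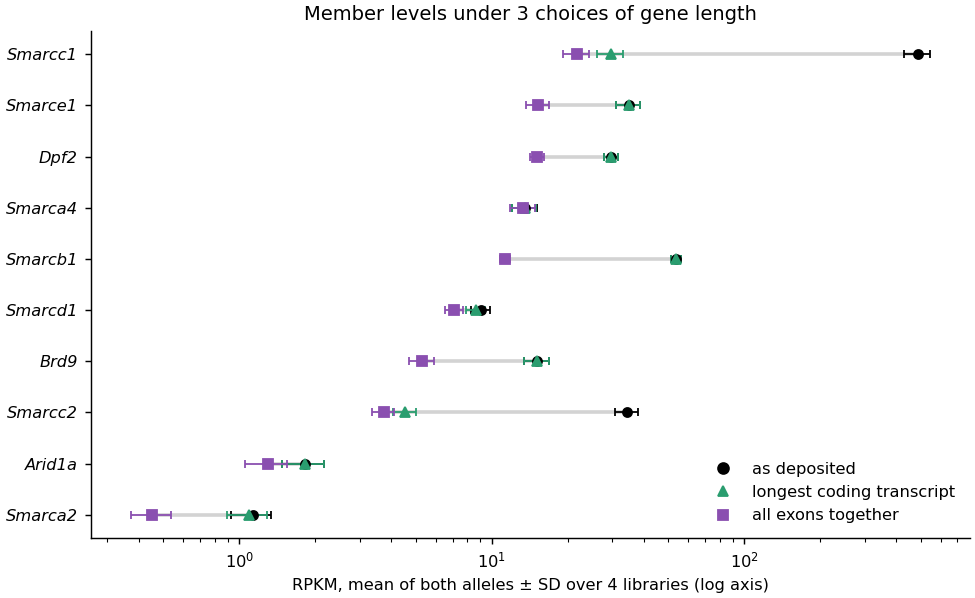
Level of the 10 members (RPKM, log axis; mean of both alleles ± SD over 4 libraries) as deposited, with the length of the longest coding transcript, and with all exons together, which orders the genes. Smarcc1 moves from 486 to 29.6 and 21.8 RPKM and Smarcc2 from 34.4 to 4.54 and 3.73 RPKM, while Smarca4 stays between 13.3 and 13.6 RPKM. The recomputed levels of Smarcc1 and Smarcd1 are the lowest that the values allow.

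The median coefficient of variation of the members over the libraries was 10.9%, against 9.26% over all genes that reached 1 RPKM, and the largest values were those of the low genes Arid1a (19.2%) and Smarca2 (18.2%). With the values of each library rescaled to a common sum, the median of the members was 15.2%. The value over all genes in that setting is not given here. The lowest library was replicate 1 for 6 members and replicate 4 for 4, and the highest was replicate 3 for 5, replicate 2 for 4 and replicate 4 for 1, which was Smarcb1, by a small margin. The median deviation from the mean over libraries on log2 was -0.12, 0.08, 0.15 and -0.08 for the members in replicates 1 to 4, and -0.03, 0.06, 0.08 and -0.10 for all genes. The summed level of the fibroblast genes was 184, 217, 231 and 197 RPKM and that of the pluripotency genes 8902, 7979, 7698 and 9330 RPKM. Most of either sum came from a single gene. Without Col1a2 the fibroblast genes summed to 39.3, 45.6, 44.6 and 36.6 RPKM, and without Dppa5a the pluripotency genes summed to 1338, 1483, 1473 and 1171 RPKM, both higher in replicates 2 and 3, where most members were highest, than in replicates 1 and 4. The part of these shifts in the spread of the members was not tested.

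The alleles were then compared within each library by limma over all genes whose S129 and CAST means added up to 1 RPKM or more, a filter that all 10 members passed. Among 13341 genes, 62.7% differed between the alleles at an adjusted p under 0.05, 31.4% with S129 higher and 31.3% with CAST higher. Among the members 8 of 10 did, 4 with S129 higher and 4 with CAST higher. The number with CAST higher became 1 without replicate 1, 2 without replicate 2 and 1 without replicate 3. The share over all genes with a library left out is not given here. It therefore cannot be told whether this fall is particular to the members. The differences of the members were small, with a median size of 0.17 on log2, against 0.31 over all genes tested. Those genes were not matched to the members in level or chromosome. They include genes of chromosomes 3 and 8, which hold no member and had median differences of -0.74 and -0.25.

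The largest allelic difference among the members was that of Smarca2, and it favoured CAST. Its S129 allele stood at 0.792, 0.963, 0.957 and 0.735 RPKM and its CAST allele at 1.37, 1.39, 1.82 and 1.05 RPKM, so that the lowest CAST value was above the highest S129 value. The difference of S129 from CAST on log2(RPKM+0.1) was -0.63 (SE 0.08, limma, adjusted p = 0.0034), and S129 made up 39.2 ± 3.41% of its reads. With a pseudocount of 1 the difference was -0.36 (limma, adjusted p = 0.0038). Smarca4 differed the other way, with S129 at 12.9, 15.8, 16.2 and 13.3 RPKM and CAST at 10.8, 13.2, 14.2 and 12.4 RPKM. The ranges of its alleles overlapped, but S129 was higher in 4 of 4 libraries (0.20, SE 0.04, limma, adjusted p = 0.0134). This call was lost without replicate 1, 2 or 3 (limma, adjusted p = 0.0562, 0.0594 and 0.0541) at nearly the same difference. The share of Smarca2 in the summed exon-union RPKM of both ATPase genes was 2.36 ± 0.11% from S129 reads and 4.33 ± 0.77% from CAST reads.

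The scaffold genes were also called in both directions. Smarcc2 was higher from S129, with 34.1, 41.0, 44.3 and 35.4 RPKM against 27.1, 33.8, 30.4 and 29.1 RPKM from CAST, and no overlap of the ranges (0.36, SE 0.06, limma, adjusted p = 0.0068). Smarcc1 was higher from CAST in 4 of 4 libraries, by much less: 444, 476, 543 and 400.2 RPKM from S129 against 480, 525, 572 and 449.9 RPKM from CAST (-0.12, SE 0.03, limma, adjusted p = 0.029). The call of Smarcc1 was lost whichever of the 4 libraries was left out (limma, adjusted p = 0.0632 to 0.108). It shares a short stretch of exon with Dhx30 on the other strand (20.5 RPKM), and the strand setting of the counting is not given in the sources used here.

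Of the other core genes, Smarcd1 and Smarce1 were higher from S129 and Smarcb1 was higher from CAST. Smarcd1 stood at 8.81, 10.6, 9.80 and 10.3 RPKM from S129 and 7.16, 8.94, 8.55 and 8.63 RPKM from CAST, with ranges that just overlap (0.24, SE 0.03, limma, adjusted p = 0.0036). It shares 287 bp and 224 bp of exon with Gm17349 and Gm34939 on the other strand. Smarce1 stood at 34.3, 42.2, 39.1 and 33.0 RPKM from S129 and 29.9, 36.5, 33.7 and 30.4 RPKM from CAST, also with overlapping ranges (0.19, SE 0.03, limma, adjusted p = 0.0092). Smarcb1 stood at 48.1, 51.3, 51.5 and 54.6 RPKM from S129 and 52.5, 59.6, 57.5 and 56.4 RPKM from CAST, and here too the ranges overlapped (-0.14, SE 0.04, limma, adjusted p = 0.0397). The call of Smarcb1 was lost without replicate 1, 2 or 3 (limma, adjusted p = 0.108, 0.133 and 0.129) and when the differences were centred on the autosomal median (limma, adjusted p = 0.0633).

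Among the genes that set the type of the complex, only Dpf2 passed the test. Dpf2 was higher from CAST in 4 of 4 libraries, with 25.6, 30.3, 29.0 and 27.8 RPKM from S129 and 29.2, 32.9, 32.9 and 30.7 RPKM from CAST (-0.16, SE 0.03, limma, adjusted p = 0.0116). Its call was lost without replicate 1 or 3 (limma, adjusted p = 0.0508 and 0.0557). Brd9 was higher from S129 in 4 of 4 libraries but did not pass (0.09, SE 0.04, limma, adjusted p = 0.121). Arid1a had S129 above CAST in 2 libraries and below it in 2 (-0.03, SE 0.05, limma, adjusted p = 0.571), and S129 made up 50.4 ± 1.51% of its reads. Without division by the read total of each allele, an alternative added after seeing the data, 5 members were called higher from S129 and 2 from CAST. The share of all genes called in this alternative is not given here. In it Brd9 passed (0.14, limma, adjusted p = 0.0356), and Smarcc1 and Smarcb1 did not.

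On the chromosomes of the members, differences in either direction nearly cancelled. The median difference of S129 from CAST over all genes tested on the chromosome was between -0.07 (chromosome 19, 448 genes, with Smarca2 and Dpf2) and 0.01 (chromosomes 10 and 11), beside differences of -0.63 for Smarca2 and -0.16 for Dpf2. Such a median does not mean that single genes were balanced, since the median size of the difference over all genes tested was 0.31.

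Other subunits of BAF, PBAF and ncBAF were read from the same fit. Of 21 genes on the list, 14 reached 1 RPKM as deposited and 13 on exon-union RPKM. For the test 15 passed the filter, of which 6 were higher from S129, 6 higher from CAST and 3 did not pass, beside 31.4% and 31.3% of all genes tested in these directions. The largest differences were those of Actb, the actin of the complex (1.59, SE 0.04, limma, adjusted p = 2.3e-05), and Bicral, an ncBAF subunit (1.50, SE 0.07, adjusted p = 0.00012), both higher from S129. Actb has near-identical copies, so that its reads are uncertain. Actl6a, which encodes the actin-related protein BAF53A, was also higher from S129 (0.51, SE 0.03, limma, adjusted p = 0.00025), although the genes of its chromosome 3 had a median difference of -0.74. Smarcd2 and Phf10 were higher from CAST (-0.56, SE 0.06 and -0.73, SE 0.15, limma, adjusted p = 0.0014 and 0.0126). The call of Dpf1 (-0.28, SE 0.08, limma, adjusted p = 0.0385) was lost without replicate 2, 3 or 4.

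**Figure D4:**
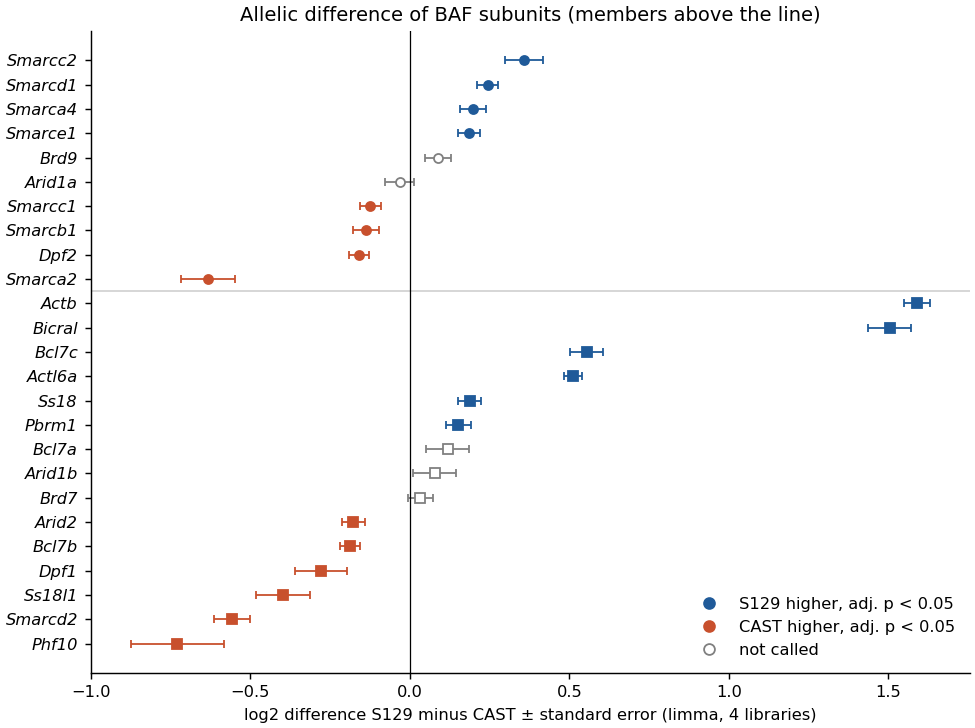
Difference of S129 from CAST on log2(RPKM+0.1) for the 10 members (circles, above the grey line) and the 15 other subunits tested (squares), with the standard error from limma over 4 libraries. Filled blue points are higher from S129 and filled red points higher from CAST at an adjusted p under 0.05, and open points did not pass. The members lie between -0.63 (Smarca2) and 0.36 (Smarcc2), inside the range of the other subunits from -0.73 (Phf10) to 1.59 (Actb).

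Other subunits of PBAF and ncBAF were measured at various levels. Besides Arid2, Brd7 and Phf10, the PBAF subunit Pbrm1 was at 9.53 ± 0.77 RPKM as deposited and 7.08 ± 0.57 on exon-union RPKM, while Phf10 was at 0.946 ± 0.18 on the latter. Of the ncBAF partners of Brd9, Bicral was at 6.40 ± 0.32 and 6.15 ± 0.31 RPKM on these scales, and Bicra at 0.48 ± 0.06 and 0.40 ± 0.05 RPKM. Among subunits known from the neuronal complex, Actl6b, Bcl11a and Bcl11b were below 1 RPKM on both scales. Actl6b was at 0.0796 ± 0.04 RPKM as deposited, against 241 ± 29.4 RPKM for its relative Actl6a, which was at 51.5 ± 6.30 on exon-union RPKM. Dpf1 and Ss18l1 were above 1 RPKM on both. Ss18l1, which encodes CREST, was at 2.62 ± 0.20 RPKM on either scale, below its relative Ss18 at 48.5 ± 5.28 RPKM as deposited and 15.4 ± 1.68 on exon-union RPKM. The lengths of Ss18 (2997 bp) and Bicral (6579 bp) were also found by search, so their exon-union levels are the lowest that the values allow.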

How the data were processed

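RNAseq of F123-ESCs was examined in 4 libraries of 1 condition. The authors removed ribosomal RNA reads with SortMeRNA, trimmed with Trimmomatic 0.40, aligned with STAR to mm10 masked at SNPs and divided reads by SNPsplit. They deposited RPKM values per gene and allele, which are not reads, together with averages and the log10 of the average plus 1. The deposited averages and log10 values were only described, not tested. The counting program and annotation are not given in the sources used here. The first S129 column carries a minus sign before its number and was read as replicate 1.

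Ensembl identifiers linked 23995 of the 24026 genes to GENCODE M21. Read totals and gene lengths were recovered from the steps between RPKM values (tolerance 0.02 reads). Where no annotated length gave whole reads, lengths from 50 to 30000 bp were searched and the smallest was taken. S129 totals were 28772351, 25669307, 24552752 and 17403695 reads, and CAST totals 27855621, 24615658, 23625670 and 16716721. Levels are the mean of both alleles. Alleles were compared with limma 3.58.1 (R 4.3.3) on within-library differences of log2(RPKM+0.1), which understates changes of low genes, over genes with a mean of S129 plus CAST of at least 1 RPKM, with Benjamini-Hochberg adjustment over all genes tested. Both allele columns of a number are reads of the same library, which gives the pairing. Over 10915 genes the deviations correlated at 0.155 to 0.278 within a number and -0.249 to 0.223 between numbers. Related subunits were compared by exact two-sided sign-flip permutation, where 4 libraries allow no p below 0.125, adjusted over 10 pairs. Scripts were tested on simulated data. The members, the lists of other subunits and markers, and the tests were chosen with earlier results of these data known. Genes named are those lists, the 3 genes closest to Smarca4 and, chosen after their values were seen, genes that share exons with a member. Alternatives were another pseudocount, filter, centring, gene length, variance trend, allele, scaling, no replicate block, and each library left out. Reads carry no molecular identifiers, so copies of the same molecule cannot be told apart, and counting error from read numbers is a lower bound.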

Additional observations from a re-analysis of the deposited data

Results flagged for a closer look

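For each member the level and the allelic difference, and for each of the 10 pairs the difference, were checked for a library that stands apart from the other 3 by Dixon's criterion. Of these 30 quantities 0 passed the criterion, while chance alone gives about 1.5.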

How the results depend on the processing

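Of the 10 pairs, 9 kept their direction under all 10 alternatives, and the difference of Arid1a from Arid1b became -0.0018 with exon-union lengths. A pseudocount of 1 in place of 0.1 took the difference of Smarcd1 from Smarcd3 from 41.6-fold to 8.97-fold. The median level of the members moved from 22.5 RPKM to 9.20 RPKM with exon-union lengths and to 14.3 RPKM with those of the longest coding transcript. The number of members called higher from S129, 4, became 1 with no replicate block and ranged from 3 to 4 when each library was left out. The number called higher from CAST, also 4, became 2 without a filter on low values, 1 with no replicate block and 2 with recovered reads that were not scaled to each allele's total, and ranged from 1 to 3 when each library was left out. With no replicate block, that is with the pairing ignored, only Smarca2 and Smarcc2 were called. The shares of all genes called under these alternatives are not given here. Changes in the number of members called therefore cannot be told apart from changes over all genes. Smarcc2 was called under all 11 alternatives, and so was Smarca2 except with a filter of 5 RPKM, which it did not pass. The difference of Arid1a, not called, ranged from -0.056 to 0.0051 when each library was left out and was 0.021 with recovered reads. Counts for the other subunits stayed within 1.5 times. With 4 libraries the exact tests cannot pass 0.05. The low read numbers of Smarca2 and Arid1a limit the precision of their levels, and the cause of the changed calls was not tested.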

Other observations

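The genes whose 8 values (4 libraries, each allele) lay closest to those of Smarca4 were Stat3, which encodes the effector of LIF signalling, Pvr, a cell adhesion receptor, and Cox10, an enzyme of heme A synthesis. Their root mean square difference from Smarca4 on log2(RPKM+0.1) was 0.05, 0.07 and 0.07, and their mean levels were 13.7, 13.6 and 13.5 RPKM, beside 13.6 RPKM for Smarca4. The measure compares level and allelic pattern together, and the columns share libraries.

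Further members share exon with other genes in GENCODE M21: Smarca4 shares 99 bp with Gm27373 on the same strand, Smarca2 shares 40 bp with 4931403E22Rik on the other strand, which stood at 0.0401 RPKM, and Dpf2 shares 79 bp with Gm42067 on the other strand.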
